A study of Oryza sativa Japonica Group with 6 samples.

Results

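The AUX/LAX genes encode the auxin influx carriers of plants. The family was taken as 5 identifiers in the deposited gene table, in the order *OsAUX1* (LOC_Os01g63770), *OsAUX2* (LOC_Os03g14080), *OsAUX3* (LOC_Os05g37470), *OsAUX4* (LOC_Os10g05690) and *OsAUX5* (LOC_Os11g06820). All 5 were found among the 42189 listed genes and all 5 passed the minimum mean level used for the tests. Their identifiers place them on chromosomes 1, 3, 5, 10 and 11 in that order. Genome positions were not used here.

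RNA-seq, which reads cDNA made from messenger RNA and credits the reads to genes, was carried out on young panicles collected before heading, with 3 libraries of NIL-*hfr131* and 3 libraries of 187R. 187R, which the study describes as an *indica* restorer line, carries the *HFR131* allele of *OsBRI1*, the brassinosteroid (BR) receptor gene. The labels give the organism as *Oryza sativa* Japonica Group instead. NIL-*hfr131* is a near-isogenic line made by repeated backcrossing to 187R, and it carries on the long arm of chromosome 1 a wild-rice fragment from *Oryza longistaminata* with the recessive allele *hfr131*. Both lines therefore share most of the 187R background, and the labels list their treatment as natural. The mutant state is represented by 1 introgression line. An effect of *hfr131*, of other wild-rice alleles in the fragment and of any difference left elsewhere in the genome therefore cannot be told apart.

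Auxin is made mainly in young tissue and is moved from cell to cell. AUX/LAX proteins, relatives of amino acid permeases, bring auxin into cells together with protons, whereas PIN proteins carry it out on one side of the cell and so give the flow a direction. In *Arabidopsis thaliana*, AUX1 and its relatives act in root gravitropism, lateral root formation and leaf arrangement. In rice, *OsAUX1* is known for lateral root initiation and root hair growth, and *OsAUX3* for root growth and grain length. BR and auxin act together on cell elongation, and the comparison asks how the mRNA levels of the carriers differ in a line with an altered BR receptor gene.

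The deposited unit was TPM, in which the reads of a gene are divided by its length and scaled to the library total, so levels of different genes can be compared within a library. Each library summed to 1000000 TPM, and the sequencing depth behind the values is unknown. In the test, 1 was added to each TPM value, log2 values of 21531 genes with a mean of at least 1 TPM were compared with limma, and *P* values received a Benjamini-Hochberg adjustment over these genes, with a threshold of 0.05. Fold changes are on the log2(TPM + 1) scale, are NIL-*hfr131* minus 187R, and the tests are two-sided. The mRNA of whole panicles was measured, so fewer cells of a type and less RNA per cell cannot be told apart.

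NIL-*hfr131* replicate 3 stood apart. Its Pearson correlation with each other library, computed over genes on log2 values, was 0.916 to 0.937, and between the remaining 5 libraries it was 0.982 to 0.991. In replicate 3, 2899 genes lay over 1 log2 unit away from the average of the rest, against 103 to 169 genes in each of the others. Results are therefore given with it and without it. All 10 floral organ identity genes of a marker list were expressed, with mean levels of 21.3 to 653 TPM. Genes of the tapetum, the nurse layer of the anther, were expressed as well, and 8 of them summed to 2831 to 3566 TPM in NIL-*hfr131* and 2230 to 2537 TPM in 187R, with 1 of the 8 higher in NIL-*hfr131* by the adjusted test (0.251% of all tested genes in that direction). That gene, *OsC6* (LOC_Os11g37280), a lipid transfer protein gene of the anther named here after its values were seen, carried the separation of the sums, and the other 7 summed to 1620 to 2186 TPM in NIL-*hfr131* and 1816 to 2028 TPM in 187R, which overlap. Of 6 leaf photosynthesis genes, 5 were tested, 2 of them were higher in NIL-*hfr131* by the adjusted test (0.251% of all tested genes) and 1 was listed at 0 in every library, and they summed to 883 to 1441 TPM in NIL-*hfr131* and 1290 to 1398 TPM in 187R. The 5 meiosis genes summed to 30.2, 29.4 and 52.5 TPM in NIL-*hfr131* replicates 1, 2 and 3, against 42.4, 40.7 and 42.9 TPM in 187R. The part of anther and leaf tissue in the results below was not tested.

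*OsAUX1* was by far the most abundant member in these panicles. Its level was 218, 225 and 307 TPM in NIL-*hfr131* replicates 1, 2 and 3, against 240, 191 and 217 TPM in 187R replicates 1, 2 and 3. Averaged over all 6 libraries it stood above 96.8% of the tested genes. The only high value was NIL-*hfr131* replicate 3, and the other NIL-*hfr131* libraries lay inside the range of 187R. *OsAUX1* averaged 250.03 ± 49.5 TPM in NIL-*hfr131* and 216 ± 24.2 TPM in 187R (SD, n = 3 libraries per line). The difference of 0.20 on the log2 scale (standard error 0.17, 95% interval -0.20 to 0.59) was within the spread between replicates (adjusted p = 0.694, limma). Without NIL-*hfr131* replicate 3 the log2 fold change was 0.041, with an interval of -0.21 to 0.29.

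*OsAUX1* is the only member on chromosome 1, the chromosome of the introgressed fragment. Its locus number, which rises along a chromosome, is 11720 above that of *OsBRI1* (LOC_Os01g52050). Whether *OsAUX1* lies inside the fragment was not tested.

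*OsAUX2* had the largest difference of the 5 members, and its libraries separated the lines. Its level was 10.7, 8.99 and 8.42 TPM in NIL-*hfr131* replicates 1, 2 and 3, against 13.5, 13.1 and 15.3 TPM in 187R replicates 1, 2 and 3. Every NIL-*hfr131* library was below every 187R library, and NIL-*hfr131* replicate 3 was the lowest of all 6, whereas it was high for the other members. *OsAUX2* averaged 9.36 ± 1.17 TPM in NIL-*hfr131* and 14.0 ± 1.17 TPM in 187R (SD, n = 3), so the mean of NIL-*hfr131* was 0.669 times that of 187R. The log2 fold change was -0.54 (standard error 0.14; 95% interval -0.88 to -0.19; unadjusted p = 0.00763 and adjusted p = 0.344, limma). It was therefore not significant after adjustment over all genes, although the difference was larger than the spread between replicates. Without NIL-*hfr131* replicate 3, the log2 fold change was -0.47 and the adjusted p was 0.116 (limma). The study itself picked *OsAUX2* on these libraries and reported it as significantly lower, so its direction here is not independent evidence. In the supplement of the study the adjusted value (q) of *OsAUX2* was above 0.05 as well.

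*OsAUX3*, *OsAUX4* and *OsAUX5* followed a shared pattern in NIL-*hfr131*, with replicates 1 and 2 below every 187R library and replicate 3 near or above the top of 187R. The level of *OsAUX3*, the member tied to grain length, was 20.4, 21.2 and 28.4 TPM in NIL-*hfr131* replicates 1, 2 and 3, against 24.1, 23.3 and 28.5 TPM in 187R replicates 1, 2 and 3. The ranges overlapped through NIL-*hfr131* replicate 3 alone. *OsAUX3* averaged 23.3 ± 4.44 TPM in NIL-*hfr131* and 25.3 ± 2.79 TPM in 187R (SD, n = 3), a log2 fold change of -0.12 (standard error 0.17; 95% interval -0.52 to 0.27; adjusted p = 0.761, limma). Without that library the log2 fold change of *OsAUX3* was -0.27 (unadjusted p = 0.0407, adjusted p = 0.306, limma).

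*OsAUX4* was at 9.98, 10.6 and 15.3 TPM in NIL-*hfr131* replicates 1, 2 and 3, against 14.0, 11.02 and 12.2 TPM in 187R replicates 1, 2 and 3. NIL-*hfr131* held both the lowest values and the highest one, so the lines overlapped. *OsAUX4* averaged 12.0 ± 2.92 TPM in NIL-*hfr131* and 12.4 ± 1.50 TPM in 187R (SD, n = 3), and the log2 fold change was -0.066 (standard error 0.19; 95% interval -0.52 to 0.39; adjusted p = 0.890, limma). Leaving out NIL-*hfr131* replicate 3 gave -0.24 and an interval of -0.52 to 0.037. The sign for *OsAUX4* turned when either of the other NIL-*hfr131* libraries or 187R replicate 1 was left out, with log2 fold changes of 0.043, 0.0022 and 0.017 in that order (NIL-*hfr131* replicate 1 before replicate 2), so no direction was fixed for it.

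*OsAUX5*, the member with the second highest level, was at 30.4, 34.1 and 45.2 TPM in NIL-*hfr131* replicates 1, 2 and 3, against 38.8, 36.5 and 40.3 TPM in 187R replicates 1, 2 and 3. As for *OsAUX4*, the extremes on both sides came from NIL-*hfr131*. *OsAUX5* averaged 36.6 ± 7.70 TPM in NIL-*hfr131* and 38.5 ± 1.89 TPM in 187R (SD, n = 3), and its log2 fold change was -0.091 (standard error 0.16; 95% interval -0.48 to 0.30; adjusted p = 0.817, limma). The log2 fold change was -0.25 without NIL-*hfr131* replicate 3 (unadjusted p = 0.0273, adjusted p = 0.261, limma), and 0.029 without NIL-*hfr131* replicate 1.

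**Figure D1:**
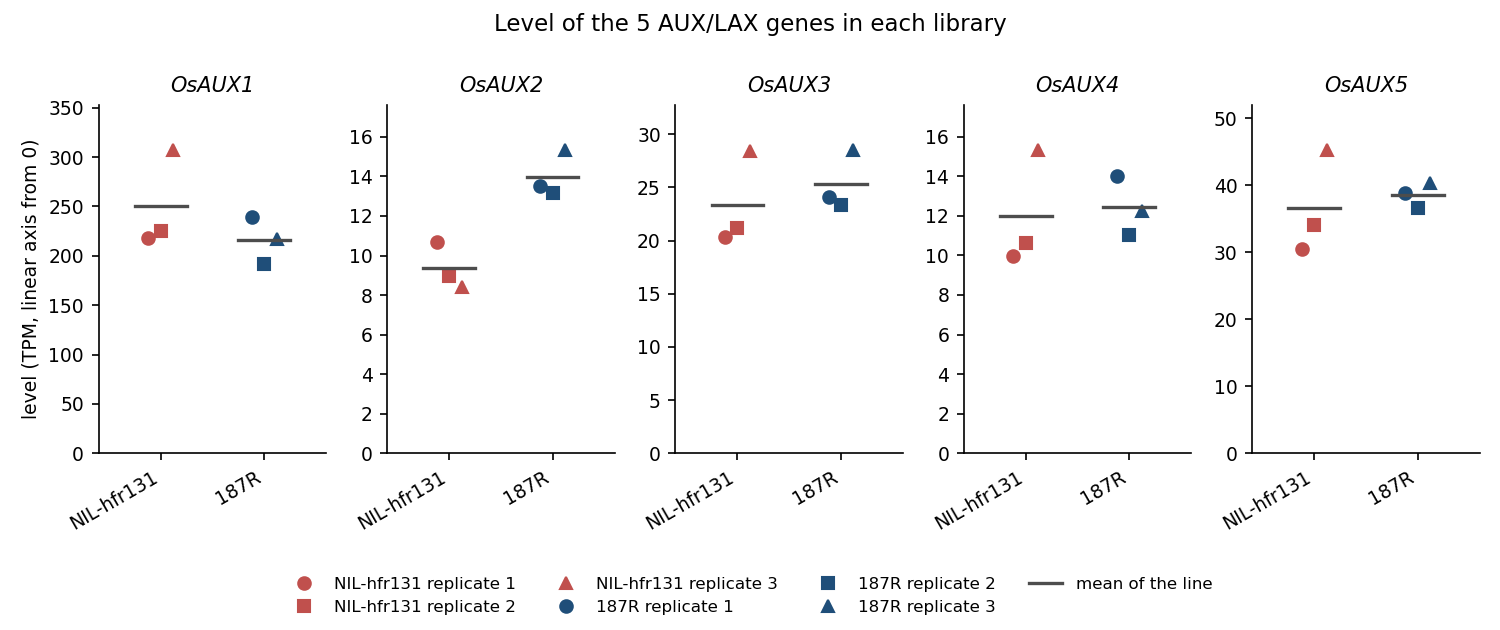
Level of each AUX/LAX gene in TPM (linear axes that start at 0, a separate scale per gene) in NIL-*hfr131* and 187R, with a symbol for each library and a bar for the mean of 3 libraries. *OsAUX2* is the member whose lines do not overlap, at 8.42 to 10.7 TPM in NIL-*hfr131* and 13.1 to 15.3 TPM in 187R, and NIL-*hfr131* replicate 3 (red triangle) is high for *OsAUX1*, *OsAUX3*, *OsAUX4* and *OsAUX5*.

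As a group, 0 of the 5 members passed the adjusted threshold, where 0.307% of all tested genes did. At an unadjusted p under 0.05, 1 of the 5 passed, *OsAUX2*, with a lower level in NIL-*hfr131*, and 4.31% of all tested genes passed in that direction (limma). The lines had ranges without overlap for 1 of the 5, again *OsAUX2*, against 9.96% of all tested genes with NIL-*hfr131* lower. The log2 fold change was below 0 for 4 of the 5 members and for 42.4% of all tested genes. That share moves with the scaling and was 51.5% after quantile normalization, with the same 4 members below 0. Its median was -0.091 over the members and 0.052 over all tested genes.

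Leaving out NIL-*hfr131* replicate 3 moved these counts. The number of members with an adjusted p under 0.05 was still 0 (1.80% of all tested genes). At an unadjusted p under 0.05, 3 of the 5 members, *OsAUX2*, *OsAUX3* and *OsAUX5*, were lower in NIL-*hfr131*, against 7.86% of all tested genes (limma). For 4 of the 5, all but *OsAUX1*, both remaining NIL-*hfr131* libraries lay below all 187R libraries, a state found for 19.6% of all tested genes. The log2 fold change was below 0 for the same 4 members and for 57.7% of all tested genes. The median log2 fold change was then -0.25 over the members and -0.033 over all tested genes. With 2 NIL-*hfr131* libraries left, these counts rest on few values.

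**Figure D2:**
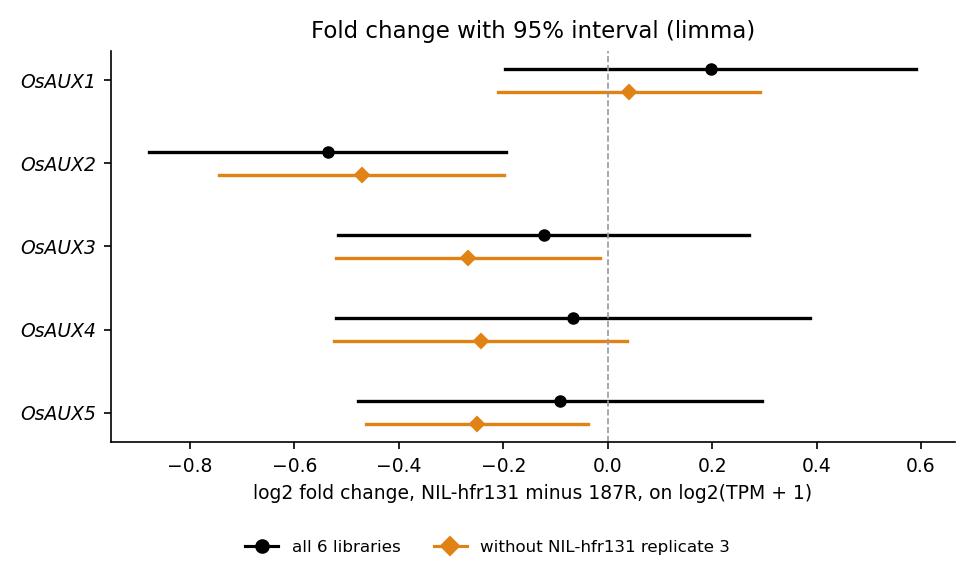
Log2 fold change of each AUX/LAX gene, NIL-*hfr131* minus 187R on the log2(TPM + 1) scale, with its 95% interval from limma, for all 6 libraries (black circles) and without NIL-*hfr131* replicate 3 (orange diamonds). The interval of *OsAUX2* stays below 0 in both fits, at -0.88 to -0.19 and -0.74 to -0.20, and the interval of *OsAUX1* spans 0 in both.

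The order of the levels was nearly the same in both lines. In NIL-*hfr131* the order of the means was *OsAUX1*, *OsAUX5*, *OsAUX3*, *OsAUX4* and *OsAUX2*, and in 187R it was *OsAUX1*, *OsAUX5*, *OsAUX3*, *OsAUX2* and *OsAUX4*. The mean level of *OsAUX1* was 6.83 times that of *OsAUX5* in NIL-*hfr131* and 5.61 times in 187R. *OsAUX5* was 1.57 times *OsAUX3* in NIL-*hfr131* and 1.52 times in 187R. These steps, and the step below *OsAUX3*, held in all 3 libraries of each line, with ranges that did not overlap. *OsAUX2* and *OsAUX4*, the lowest members, were not separated in either line. *OsAUX4* was above *OsAUX2* in 2 of 3 NIL-*hfr131* libraries and *OsAUX2* was above *OsAUX4* in 2 of 3 187R libraries.

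Expressed as shares of the family's summed TPM, which a single scaling factor per library cannot move, the lines were separated for every member. *OsAUX1* made up 75.3%, 75.0% and 75.9% of the family total in NIL-*hfr131* replicates 1, 2 and 3, against 72.6%, 69.5% and 69.3% in 187R replicates 1, 2 and 3. The share in NIL-*hfr131* replicate 3 was close to that in the other NIL-*hfr131* libraries, although the level of *OsAUX1* in it was the highest. *OsAUX2* held 2.08% to 3.68% in NIL-*hfr131* and 4.09% to 4.88% in 187R. *OsAUX3* had 7.03% to 7.07% in NIL-*hfr131* and 7.31% to 9.08% in 187R. For *OsAUX4* the share was 3.44% to 3.79% in NIL-*hfr131* and 3.90% to 4.24% in 187R, and for *OsAUX5* it was 10.5% to 11.4% in NIL-*hfr131* and 11.7% to 13.3% in 187R. The shares add up to 100% in each library, so a higher share of *OsAUX1* lowers the others and these are not 5 separate results. Some gaps were small, such as 3.79% against 3.90% for *OsAUX4*. No test was made on the shares, since the members were chosen with results of these libraries known. How often the shares within other sets of genes separate these lines was not examined.

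**Figure D3:**
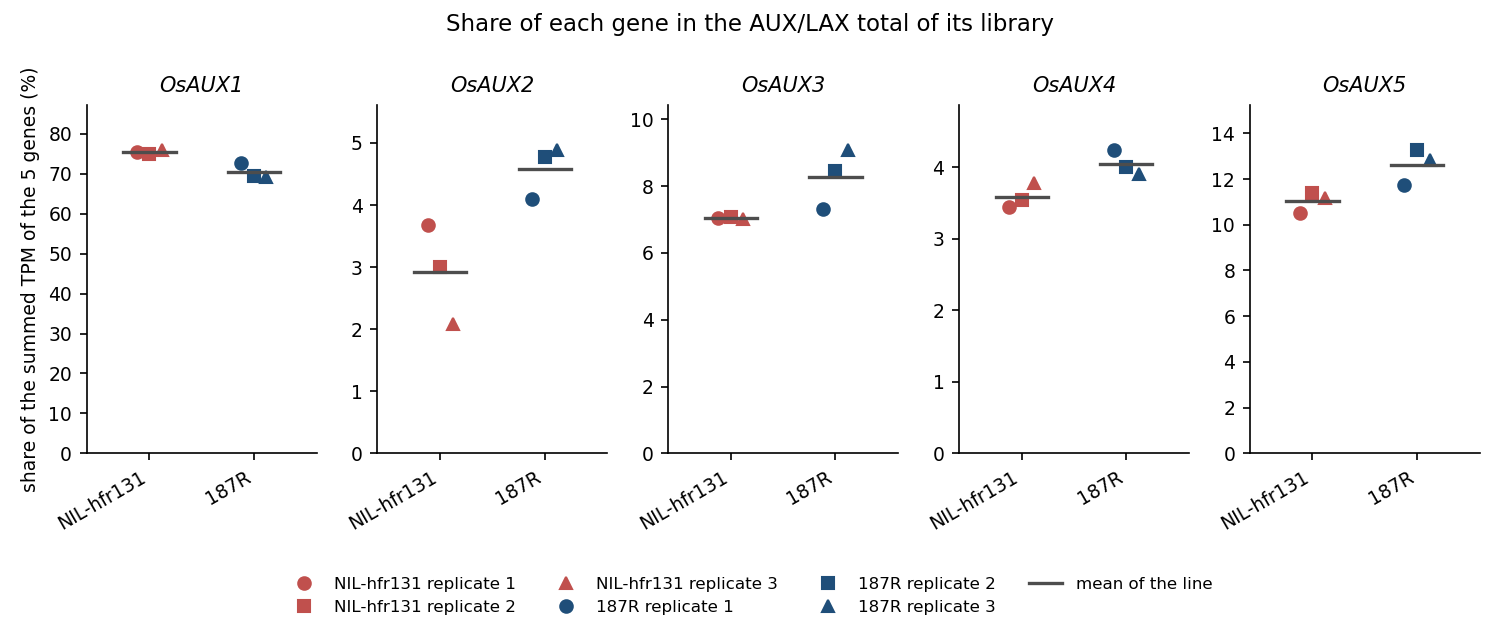
Share of each AUX/LAX gene in the summed TPM of the 5 genes of its library, in percent (axes start at 0, a separate scale per gene), with a symbol for each library and a bar for the mean of each line. *OsAUX1* lies at 75.0% to 75.9% in NIL-*hfr131* and at 69.3% to 72.6% in 187R. The other 4 genes lie lower in every NIL-*hfr131* library than in any 187R library. The shares within a library are not independent of each other, and other sets of genes were not examined in this way.

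In absolute terms the family total did not separate the lines. It was 290, 299.7 and 404 TPM in NIL-*hfr131* replicates 1, 2 and 3, against 330, 275 and 314 TPM in 187R replicates 1, 2 and 3. Without *OsAUX1*, the other 4 members summed to 71.4, 74.9 and 97.4 TPM in NIL-*hfr131* and to 90.4, 84.0 and 96.4 TPM in 187R. For this sum NIL-*hfr131* replicates 1 and 2 were below every 187R library and replicate 3 was above all of them.

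*OsAUX2* was set against its relatives by ratios within each library, which a single factor per library cannot move either. The log2 ratio of *OsAUX2* to *OsAUX1* was -4.73 ± 0.42 in NIL-*hfr131* and -3.95 ± 0.18 in 187R (SD, n = 3), a difference of -0.78 without overlap (exact permutation test, two-sided, p = 0.1). This is the smallest p that 3 against 3 libraries allow. The difference for the ratio to *OsAUX3* was -0.46 without overlap (exact permutation test, p = 0.1). For the ratios to *OsAUX4* and *OsAUX5* the differences were -0.51 and -0.49, the ranges overlapped, and the exact permutation p was 0.2 for each. Adjusted over the 4 ratios, p was 0.2 for each (exact permutation tests). No ratio could pass 0.05 with these numbers of libraries, and the study had picked *OsAUX2* on them, so the ratios are a description. Without NIL-*hfr131* replicate 3 the 4 differences were -0.55, -0.23, -0.25 and -0.25 in the order above.

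The PIN efflux carriers are the counterpart of the family in auxin transport. A list of 12 PIN identifiers was assigned from general knowledge of rice, since the files pair no identifier with a name, and 7 of them were tested. The other 5 had mean levels of 0.674 TPM or less. No PIN gene passed the adjusted threshold. At an unadjusted p under 0.05, 2 of the 7 were lower in NIL-*hfr131* (4.31% of all tested genes, limma), *OsPIN1d* (LOC_Os12g04000) and *OsPIN8* (LOC_Os01g51780), and these were also the 2 with lower ranges without overlap (9.96% of all tested genes). Both were picked by the study on these libraries, also with adjusted values (q) above 0.05 in its supplement. *OsPIN8* was at 4.14, 5.03 and 4.38 TPM in NIL-*hfr131* and at 5.63, 6.59 and 7.58 TPM in 187R, so, as with *OsAUX2*, NIL-*hfr131* replicate 3 was low with its line. Unlike *OsAUX2*, *OsPIN8* is on chromosome 1, with a locus number of 51780, near the 52050 of *OsBRI1*. Whether *OsPIN8* lies inside the introgressed fragment was not tested. A local difference of allele or of read assignment therefore cannot be told apart from a response of the gene. A further tested PIN gene is on chromosome 1 as well, with a locus number of 45550, and the same limit holds for it. This gene was at 37.6, 40.3 and 56.3 TPM in NIL-*hfr131* and at 67.1, 61.5 and 44.0 TPM in 187R, with overlapping ranges. Its log2 fold change was -0.36, and -0.53 without NIL-*hfr131* replicate 3. *OsPIN1d* was at 2.05, 1.70 and 2.47 TPM in NIL-*hfr131* and at 2.94, 3.29 and 2.83 TPM in 187R.

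Of the 7 tested PIN genes, 6 had a log2 fold change below 0, with a median of -0.20, against 42.4% of all tested genes below 0 (57.7% without NIL-*hfr131* replicate 3, where 6 of the 7 were below 0 as well). Without NIL-*hfr131* replicate 3, 6 of the 7 were lower in NIL-*hfr131* at an unadjusted p under 0.05 (7.86% of all tested genes, limma), the median was -0.37, and 0 passed the adjusted threshold. The summed PIN level was 146, 150.1 and 194.2 TPM in NIL-*hfr131* replicates 1, 2 and 3, against 193.8, 187 and 176 TPM in 187R. The PIN sum and the sum of the 4 AUX/LAX genes other than *OsAUX1* had the same arrangement of libraries. In it, NIL-*hfr131* replicates 1 and 2 were below every 187R library and replicate 3 was above all of them. The sum of all 5 AUX/LAX genes, which includes *OsAUX1*, did not have it. For that sum, NIL-*hfr131* replicates 1 and 2, at 290 and 299.7 TPM, lay inside the 187R range of 275 to 330 TPM. For the PIN sum, replicate 3 was above the highest 187R library by a narrow margin. The arrangement was not limited to auxin carriers, since the sum of the 5 meiosis genes had it too. It is an arrangement of sums, and not every gene in them had it. How often the sums of other sets of genes have it was not examined. Without NIL-*hfr131* replicate 3, all 5 meiosis genes had a log2 fold change below 0, with a median of -0.35, and 3 were lower at an unadjusted p under 0.05 (7.86% of all tested genes, limma). The part of meiotic cells in the levels of the carriers was not tested. The AUX/LAX and PIN comparisons use the same libraries, so they are not independent of each other.

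The upstream genes of the study were read beside the carriers. *OsARF17* (LOC_Os06g46410), the auxin response factor gene that the study places upstream of *HFR131*, was at 47.6, 52.2 and 152 TPM in NIL-*hfr131*, against 57.0, 36.7 and 46.1 TPM in 187R. Its one high value was NIL-*hfr131* replicate 3, with a log2 fold change of 0.65 (adjusted p = 0.694, limma), and of 0.12 without that library. *OsBRI1* was at 68.7, 71.5 and 117 TPM in NIL-*hfr131* and at 63.5, 58.7 and 66.7 TPM in 187R. Its log2 fold change was 0.40 (adjusted p = 0.685, limma), and 0.15 without NIL-*hfr131* replicate 3. Every NIL-*hfr131* library was above every 187R library, which held for 1850 of the 21531 tested genes. By quantitative PCR the study found higher *HFR131* expression in stem and leaf of NIL-*hfr131*. It also described a promoter deletion in *hfr131* with higher reporter activity. Stem and leaf were not measured here. Which *OsBRI1* allele a library carries cannot be read from TPM values.

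Genes next to each member were examined for shared differences, taking listed genes of the same chromosome with a locus number within 100 of the member. There were 82 such genes, 52 were tested, and 1 passed the adjusted threshold, with a higher level in NIL-*hfr131* (0.251% of all tested genes in that direction). That gene, LOC_Os10g05720, is the nearest listed gene above *OsAUX4*, with a locus number 30 higher and 0 listed genes between them. It was at 237, 213 and 213 TPM in NIL-*hfr131*, against 5.94, 4.76 and 8.09 TPM in 187R, which is 4.96 higher on the log2 scale (standard error 0.18; adjusted p = 0.000172, limma). This was the highest log2 fold change of all 21531 tested genes. *OsAUX4* beside it had a log2 fold change of -0.066, and the other 6 tested neighbours of *OsAUX4* lay between -0.32 and 0.17. The files give no name for LOC_Os10g05720.

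**Figure D4:**
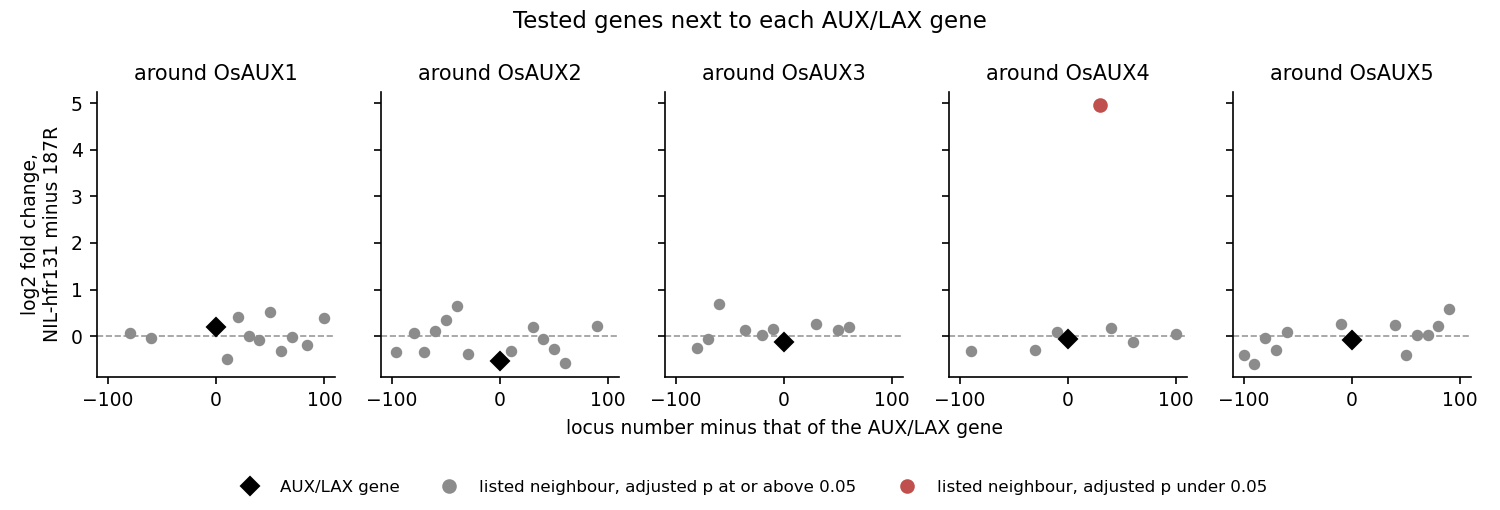
Log2 fold change, NIL-*hfr131* minus 187R on the log2(TPM + 1) scale, of tested genes at most 100 locus numbers away from an AUX/LAX gene, plotted against the difference in locus number. The black diamond is the AUX/LAX gene, grey points did not pass the adjusted threshold, and the 1 red point, LOC_Os10g05720 next to *OsAUX4*, is at 4.96.

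The gene most like each member over the 6 libraries was found by Pearson's r of log2(TPM + 1) among the 21530 other tested genes. It was LOC_Os02g54120 for *OsAUX1* (r = 0.997), LOC_Os07g07270 for *OsAUX2* (r = 0.999), LOC_Os03g06120 for *OsAUX3* (r = 0.997), LOC_Os06g40190 for *OsAUX4* (r = 0.993) and LOC_Os03g32040 for *OsAUX5* (r = 0.994). For each member, 67 to 576 genes had an r above 0.95, so with 6 libraries, 1 of which stands apart, the first place is a description and carries no weight. LOC_Os07g07270 had a log2 fold change of -0.15, smaller than the -0.54 of *OsAUX2*. The files give no names for these 5 genes.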

How the data were processed

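Messenger RNA of young panicles was measured in 3 libraries of NIL-*hfr131* and 3 libraries of 187R, with groups and replicate numbers taken from the sample titles. The titles call the groups 187R WT and 187R mutant, and the mutant was read as NIL-*hfr131* from the study. The authors sequenced cDNA libraries (MGISEQ-2000) and deposited TPM values for 42189 genes, 11670 of them at 0 in every library. The aligner, build, annotation and filters are not given in the sources used here. The methods name FPKM, but each library sums to 1000000. TPM keeps no depth, so no counting error is given. Nothing says whether plants were pooled, so p-values measure only the spread between these samples. Reads of near-identical or antisense genes may have been shared or split by the authors' processing.

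Lines were compared on log2(TPM + 1) with limma 3.58.1 in R 4.3.3 (line as the only term, trend = TRUE), keeping the 21531 genes whose mean was 1 TPM or more. The test was also run on simulated data in which no library stood apart, unlike these data. Exact permutation tests used scipy 1.17.1. Alternatives changed the pseudocount (0.1), the minimum mean (none, or 5 TPM), the scaling (median-of-ratios or quantile) or the prior (constant), added the replicate number as a block, or left out 1 library. The members and lists were chosen with earlier results of these data known. Named genes are the members, 4 other genes the study names, neighbours within 100 locus numbers that passed the test, and the most alike gene of each member. Names come from the study or general knowledge of rice, as no identifier (0 of 42189) was found in the RefSeq gene table. Protein and promoter sequences were not analysed here.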

Additional observations from a re-analysis of the deposited data

How the results depend on the processing

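The 5 members were refitted under 13 alternatives each, and 0 of the 65 fits had an adjusted p under 0.05 (limma). In 61 of the 65 the direction was that of the 6-library fit. The 4 exceptions, *OsAUX4* without NIL-*hfr131* replicate 1 (0.043), without NIL-*hfr131* replicate 2 (0.0022) and without 187R replicate 1 (0.017), and *OsAUX5* without NIL-*hfr131* replicate 1 (0.029), were all close to 0. Over the 6 fits with 1 library left out, the log2 fold change was 0.041 to 0.29 for *OsAUX1*, -0.62 to -0.47 for *OsAUX2*, -0.27 to -0.037 for *OsAUX3*, -0.24 to 0.043 for *OsAUX4* and -0.25 to 0.029 for *OsAUX5*. The adjusted p of *OsAUX2* ranged from 0.116 to 0.904 over its alternatives. The log2 ratio of the family totals was 0.11, 0.057 with median-of-ratios factors and -0.056 to 0.20 with each library left out. The number of genes called over all tested genes was 66 with all 6 libraries and 13 to 384 with each library left out. It was 384 without NIL-*hfr131* replicate 3, 28, 15, 14, 13 and 13 without each of the others, and 46 to 70 under the other alternatives apart from the block.

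The replicate numbers were shared by both lines. Deviations of same-numbered libraries from their line means had correlations across genes of -0.21, 0.060 and 0.090. The NIL-*hfr131* mean includes replicate 3, which stands apart, so these values cannot decide whether same-numbered libraries share more than a number. With the number as a replicate block, 16 genes were called, and *OsAUX2* kept its log2 fold change of -0.54 with an adjusted p of 0.725 (limma). TPM keeps no depth, so how far depth limits the lowest members is unknown.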
